A study of Rattus norvegicus with 8 samples.

Results

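The miRNAs described here are the products of the rat hairpins mir-101a and mir-101b, measured as reads in small RNA libraries of rat kidney. Every row of the count table whose name after rno- is mir-101a or mir-101b, with or without a mark for the opposite arm, was taken, which gave 4 of the 620 miRNAs listed. These were rno-miR-101a and rno-miR-101b, the abundant arms, and rno-miR-101a* and rno-miR-101b*, the opposite arms in the naming of that time. Of these 4, 3 reached 10 reads in 4 or more of the 8 libraries and were tested together with all other such miRNAs, and rno-miR-101b* did not. The rows were chosen by name and because the 2 arms without a star were known to be abundant in these libraries, so that their abundance is given as a description with no test.

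The 8 libraries came from whole kidney tissue of male Big Blue rats, a transgenic Fisher 344 line whose reporter transgene serves mutation assays and is present in both groups. The AA group of 4 rats received aristolochic acid, a plant carcinogen that injures the kidney tubule, as its sodium salt by gavage at 10 mg/kg in 4 ml/kg, given 5 times weekly over 12 weeks. The CTL group of 4 rats received saline (0.9% sodium chloride) as often and for as long. The rats were 6 weeks old at the start, and the kidneys were taken 1 day after the last dose. Each library was made from a piece of bulk kidney of 1 rat, with all its cell types mixed, so that fewer cells of a type and less RNA per cell cannot be told apart in any value below.

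A miRNA is cut from a hairpin precursor as a short duplex, of which usually a single arm is kept in the silencing complex and pairs with messenger RNAs through its seed near the 5′ end. The miR-101 family is known as a repressor of Ezh2, the histone methyltransferase of Polycomb complex PRC2, and of further growth, survival and inflammation genes such as Mcl1, Fos and Ptgs2, the gene of cyclooxygenase COX-2. It is often reduced in tumors and is described as a tumor suppressor in epithelial tissue.

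The sequences are shown because they set what the counts can tell apart. They were taken from RefSeq on the rat assembly GRCr8, where all 4 names were matched under the newer arm names, with 3p for the rows without a star and 5p for the starred rows. The seed, bases 2 to 8, is in capitals, and miR-144 is added as the only other rat miRNA of the table that shares bases 2 to 7 with miR-101a.
rno-miR-101a (3p arm): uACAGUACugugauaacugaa
rno-miR-101b (3p arm): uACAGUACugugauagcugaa
rno-miR-101a* (5p arm): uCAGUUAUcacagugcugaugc
rno-miR-101b* (5p arm): uCGGUUAUcaugguaccgaugc
rno-miR-144 (3p arm): uACAGUAUagaugauguacu

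The abundant arms of miR-101a and miR-101b were identical in 20 of 21 bases and had the same seed, which no other of the 693 mature rat sequences carried. They differed by A16G, with the base of miR-101a first and the position counted from the 5′ end. Their reads are therefore separated by 1 base outside the seed, and how the authors' mapping placed a read with a sequencing error at that base is not given in the sources used here. The opposite arms were further apart, with 5 substitutions over 22 bases, the first of them A3G within the seed, so that miR-101a* and miR-101b* have different seeds. miR-144 differed from miR-101a by C8U at the last base of the seed and shared only 8 bases with it in an ungapped comparison.

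The hairpins are shown with both arms in capitals. mir-101a is a hairpin of 75 bases on the minus strand at chr5:121081683-121081757, within the span of the long non-coding RNA gene LOC120102934. mir-101b (RefSeq symbol Mir101-2) is a hairpin of 97 bases on the plus strand at chr1:236273922-236274018, within the span of the protein-coding gene Rcl1. The table used for names does not say whether these stretches are exonic or intronic.
mir-101a hairpin: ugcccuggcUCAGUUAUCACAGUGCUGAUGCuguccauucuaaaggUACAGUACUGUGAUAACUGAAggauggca
mir-101b hairpin: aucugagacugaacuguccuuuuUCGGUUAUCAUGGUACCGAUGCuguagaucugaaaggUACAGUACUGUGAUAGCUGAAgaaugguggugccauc

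In both hairpins the abundant arm lies on the 3′ side, and 15 bases separate it from the opposite arm. In the structure of lowest free energy that RNAfold predicted, 20 of the 21 bases of the miR-101a arm paired with the opposite arm, at -36.2 kcal/mol for the hairpin. For miR-101b the same count was 19 of 21, at -31.4 kcal/mol, with 5 G-U pairs against 2 in mir-101a. Predicted structures have no replicate error, and energies of hairpins of different length are not directly comparable.

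The libraries held between 13412373 and 15616670 reads on known miRNAs, and no pair of libraries of the same group agreed within sampling noise. Kidney epithelial miRNAs (miR-30a, miR-200b, miR-200c, miR-192, miR-194 and miR-204, 6 of 6 found, 2 called lower) summed to 143754 to 210581 CPM in the CTL group and 108660 to 158213 in the AA group, where CPM are reads scaled by the TMM library size. The liver miRNA miR-122 was at 4.05 to 53.0 CPM in the CTL group and 0.696 to 523 in the AA group, although a label field names the tissue as liver. Its high value in the AA group came from the second AA library alone, with 0.696, 2.96 and 1.18 CPM in the others. The high value in the CTL group was in the first library, with 4.05, 5.89 and 4.89 CPM in the others. The source of these high values was not tested. The leukocyte list (4 of 4 miRNAs found, 2 called higher) summed to 914 to 1264 CPM in the CTL group and 2057 to 4121 in the AA group. The fibroblast and injury list, led by miR-21 (4 of 4 found, 2 called higher), summed to 28622 to 39270 CPM in the CTL group and 71475 to 178897 in the AA group, so that neither of these 2 lists overlapped between the groups.

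miR-101a and miR-101b were among the most abundant miRNAs of every kidney. rno-miR-101a ranked 8 to 11 in the 8 libraries and made up 1.38% to 2.23% of the reads in the CTL group and 1.04% to 2.11% in the AA group. rno-miR-101b ranked 10 to 15 and made up 1.00% to 1.53% of the reads in the CTL group and 0.851% to 1.66% in the AA group. Together they took 3.18% ± 0.574 of the reads in the CTL group and 2.97% ± 0.779 in the AA group (SD, n = 4 each). At 132952 reads or more per library, the counting error of these arms was at most 0.274% of the value, and the spread between rats set their precision.

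rno-miR-101a was not called different between the groups. It was at 22141, 20704, 21496 and 15481 CPM in the 4 CTL libraries and at 17692, 16926, 20085 and 9642 CPM in the 4 AA libraries. 3 of the CTL libraries were above all AA libraries, while the fourth CTL library lay among the AA values and the fourth AA library was the lowest of the 8. The means were 19955 ± 3040 and 16086 ± 4502 CPM (SD, n = 4 each). The log2 fold change of AA over CTL was -0.31 (SE, its standard error, 0.23, 95% interval -0.82 to 0.20, adjusted p = 0.37 in the edgeR fit over 367 miRNAs), which spans a level in AA kidney from 0.568 to 1.14 times that of CTL kidney.

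rno-miR-101b gave nearly the same estimate. It was at 15112, 15121, 14721 and 11246 CPM in the CTL libraries and at 13148, 13672, 11365 and 7875 CPM in the AA libraries. The first 3 CTL libraries were again above all AA libraries, and the fourth library was again the lowest within each group. The means were 14050 ± 1879 and 11515 ± 2620 CPM (SD, n = 4 each), with a log2 fold change of -0.29 (SE 0.20, 95% interval -0.72 to 0.15, edgeR adjusted p = 0.34). Because the 2 arms differ by a single base, their reads were also summed before the fit, and the sum had a log2 fold change of -0.28 (SE 0.22, edgeR adjusted p = 0.40), so that the estimate did not rest on how reads were split between the rows.

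None of the 3 tested miR-101 rows was called by edgeR, and none had an unadjusted p under 0.05. Over all 367 miRNAs, 16.3% were called between the groups, 10.4% higher and 5.99% lower in AA, and 30.0% had an unadjusted p under 0.05. The DESeq2 Wald test also called none of the 3, with an unadjusted p under 0.05 for rno-miR-101a* alone, while over all miRNAs it called 20.2% and gave 31.1% an unadjusted p under 0.05. All 3 estimates were below 0, with a median log2 fold change of -0.31 beside 0.06 over all tested miRNAs.

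**Figure D1:**
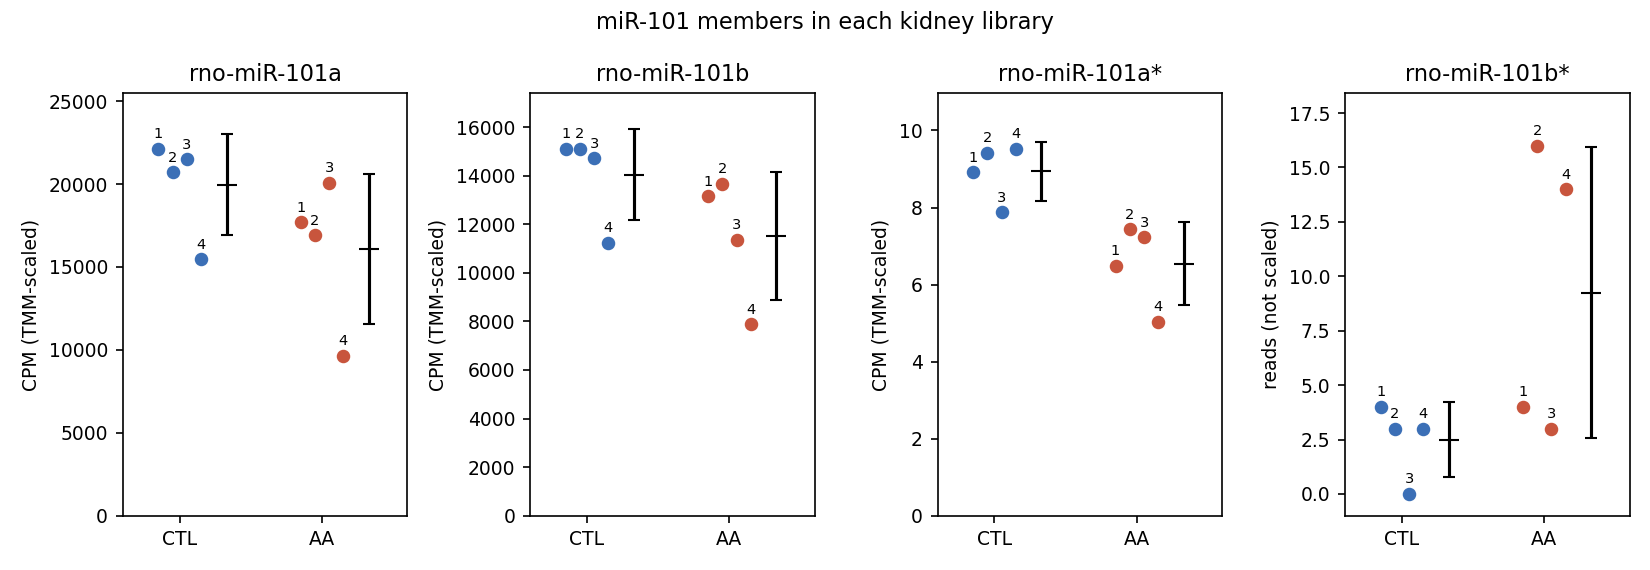
Each panel plots 1 miR-101 row by group, with a point per library labelled by its number and the group mean ± SD (n = 4) as a black bar, in TMM-scaled CPM for the first 3 panels and in unscaled reads for rno-miR-101b*. The fourth library is the lowest of its group for rno-miR-101a (15481 CPM in CTL and 9642 in AA) and for rno-miR-101b (11246 and 7875), and only rno-miR-101a* shows no overlap between the groups.

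The opposite arm rno-miR-101a* was the only row whose groups did not overlap in TMM-scaled CPM. It had 119, 128, 127 and 117 reads in the CTL libraries and 84, 137, 105 and 85 in the AA libraries, which scaled to 8.92, 9.42, 7.88 and 9.53 CPM and to 6.49, 7.43, 7.22 and 5.03 CPM. Every AA library lay below every CTL library after scaling, although the second AA library had the most unscaled reads of the 8. That library also had the largest share of its reads on this arm, 0.00090% against at most 0.00087% in the CTL group. The lack of overlap therefore rests on the TMM scaling, with a factor of 1.21 for that library. The means were 8.94 ± 0.755 and 6.55 ± 1.08 CPM (SD, n = 4 each), and the log2 fold change was -0.45 (SE 0.21, 95% interval -0.92 to 0.02, edgeR adjusted p = 0.18). Among all tested miRNAs, 24.3% did not overlap between the groups, and in 9.81% every AA library was below every CTL library. The counting error of a single library was 8.54% to 10.9% of its value.

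rno-miR-101b* was near the limit of detection. It had 4, 3, 0 and 3 reads in the CTL libraries and 4, 16, 3 and 14 in the AA libraries, so that the second and the fourth AA library held most of its 47 reads. The other AA libraries, at 4 and 3 reads, overlapped with the CTL group. The library with 0 reads allows a share of up to 1.9e-05% of its reads, from a limit of 3 counts that covers counting error only. In the fit without a filter on reads its log2 fold change was 1.57 (SE 0.70, edgeR adjusted p = 0.19), a value that depends on few reads and on the prior count.

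Both hairpins gave very uneven arms. Of the reads of both arms over all libraries, 0.0428% fell on rno-miR-101a* and 0.0031% on rno-miR-101b*. Of the 168 hairpins with both an unstarred and a starred row, only rno-miR-146b had a smaller starred share than miR-101b, and miR-101a stood in place 12, beside a median share of 1.93%. Among the 9 of these hairpins that had at least as many reads as rno-miR-101b, miR-101b had the smallest share and miR-101a the median one. Reads of PCR products are not independent molecules, so that the intervals given for shares cover counting error only.

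Ratios within a library do not depend on the scaling between libraries. With 0.5 added to each count, the CTL libraries held 2471, 2190, 2719 and 1617 reads of rno-miR-101a per read of rno-miR-101a*, and the AA libraries held 2709, 2269, 2767 and 1904. The groups overlapped, and in each group the fourth library had the lowest ratio. The mean log2 ratio was 11.11 ± 0.326 in CTL and 11.22 ± 0.252 in AA (SD, n = 4 each), a difference of 0.11 (exact permutation test, two-sided, p = 0.629, adjusted p = 0.80 over 3 ratios).

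For rno-miR-101b the starred share of the reads of both arms was 10 of 782457 reads in the CTL group, or 0.0013% (95% Wilson interval 0.00069% to 0.0024%), and 37 of 720306 in the AA group, or 0.0051% (0.0037% to 0.0071%). The libraries differed more than these pooled intervals. In the second and the fourth AA library the share was 0.0063% and 0.011%, and in the other AA libraries 0.0024% and 0.0018%, beside 0% to 0.0022% in the CTL libraries. The log2 ratio of miR-101b over its opposite arm differed by -1.91 between AA and CTL (exact permutation test, two-sided, p = 0.114, adjusted p = 0.34), and without the third CTL library, which had 0 starred reads, by -1.07.

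The 2 abundant arms kept a similar ratio to each other. rno-miR-101a had 1.47, 1.37, 1.46 and 1.38 reads per read of rno-miR-101b in the CTL libraries and 1.35, 1.24, 1.77 and 1.22 in the AA libraries. The CTL libraries lay close together, while the third AA library was above all others and the other 3 AA libraries were below all CTL libraries. The mean log2 ratio was 0.50 ± 0.0529 in CTL and 0.46 ± 0.247 in AA (SD, n = 4 each), a difference of -0.04 (exact permutation test, two-sided, p = 0.800, adjusted p = 0.80). Without the third AA library the difference was -0.16 (p = 0.0286 in the same exact test, the smallest that these splits allow, and adjusted p = 0.0857), so that this 1 library decided the size of the difference.

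**Figure D2:**
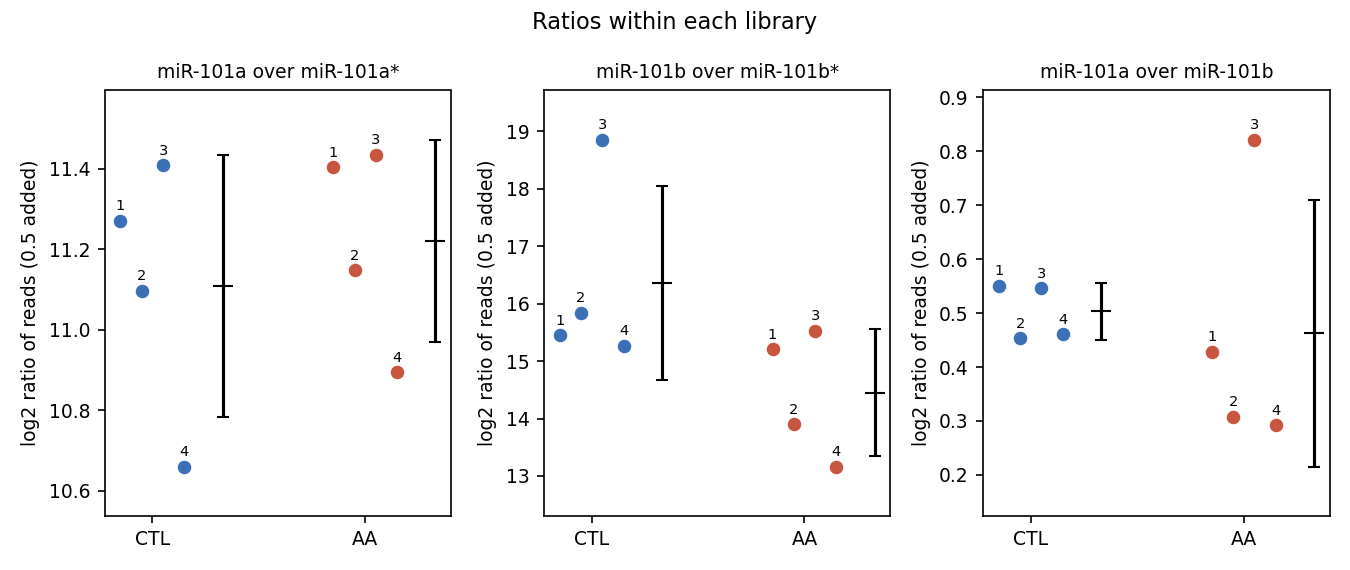
The log2 ratio of reads within each library (vertical axes, which do not start at 0) is plotted by group, with a point per library labelled by its number and the group mean ± SD (n = 4) as a black bar. For miR-101a over miR-101b the third AA library stands above all others at 0.82 and the other 3 AA libraries lie below the CTL group, and for miR-101b over miR-101b* the third CTL library, with 0 starred reads, stands at 18.86.

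The libraries numbered 4 were the lowest of their group for both abundant arms, as they were for 18.5% of all tested miRNAs in both groups at once. In the 6 libraries numbered 1 to 3, rno-miR-101a ranged from 20704 to 22141 CPM in the CTL group and from 16926 to 20085 in the AA group, and rno-miR-101b from 14721 to 15121 and from 11365 to 13672, in the scaling of all 8 libraries. For rno-miR-101a*, the ranges were 7.88 to 9.42 and 6.49 to 7.43 CPM. All 3 were thus lower in every AA library there in this scaling, as were 16.6% of all tested miRNAs. The order did not hold for unscaled shares of reads. For rno-miR-101a these were 1.94%, 1.92% and 2.23% in CTL and 1.71%, 2.05% and 2.11% in AA, by library number. For rno-miR-101b they were 1.32%, 1.40% and 1.53% in CTL and 1.27%, 1.66% and 1.20% in AA. The share of rno-miR-101a* was also highest in an AA library, as given above. A fit to these 6 libraries gave log2 fold changes of -0.28, -0.28 and -0.35 for rno-miR-101a, rno-miR-101b and rno-miR-101a*, with edgeR adjusted p = 0.17, 0.20 and 0.22, so that none was called there either.

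The size of the estimates depended on the scaling. A change of scaling shifts all log2 fold changes by nearly the same amount. Their distance from the median of all tested miRNAs is thus kept by construction. With total counts in place of TMM scaling, the median log2 fold change of all tested miRNAs moved from 0.06 to 0.27, and the values of rno-miR-101a, rno-miR-101b and rno-miR-101a* were -0.11, -0.08 and -0.23. With upper-quartile factors the median was -0.06 and the 3 values were -0.42, -0.41 and -0.56. Relative to the median of all tested miRNAs, rno-miR-101a was at -0.37, -0.39 and -0.36 under TMM, total counts and upper-quartile factors, and rno-miR-101b at -0.35, -0.35 and -0.35. With 1 library left out, this distance did move for rno-miR-101a, from -0.50 without the fourth CTL library to -0.15 without the fourth AA library.

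Other miRNAs known to repress Ezh2 were examined as a group. The list held 13 names (miR-26a, miR-26b, miR-138, miR-214, miR-124, miR-98 and 7 let-7 members), of which 12 were tested and miR-124 was not. Neither edgeR nor DESeq2 called any of the 12, beside 16.3% and 20.2% called over all tested miRNAs. Each tool gave an unadjusted p under 0.05 for 2 of the 12, beside 30.0% and 31.1% over all tested miRNAs. Of the 12, 10 had a log2 fold change above 0 and 2 below it, with a median of 0.36, while of all 367 tested miRNAs 201 were above 0 and the median was 0.06. The 10 include the 8 members of the let-7 family with miR-98, which have similar sequences and are not independent of each other.

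rno-miR-26a and rno-miR-26b, which share a seed with each other and not with miR-101, were the 2 members below 0. rno-miR-26a was at 6920, 6899, 6138 and 8824 CPM in the CTL libraries and at 5067, 4883, 6023 and 5834 in the AA libraries, with a log2 fold change of -0.40 (SE 0.16, edgeR adjusted p = 0.12). Its groups did not overlap in TMM-scaled CPM, and unlike in rno-miR-101a the fourth CTL library was the highest of its group. rno-miR-26b was at -0.34 (SE 0.14, edgeR adjusted p = 0.14), also without overlap in this scaling. As for rno-miR-101a*, neither lack of overlap held for unscaled shares of reads. The TMM factor was 0.874 for the first CTL library, against 1.05 and 1.08 for the third and the fourth AA library. In 9.81% of all tested miRNAs every AA library was below every CTL library.

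The other 10 list members were between 0.17 for rno-let-7d and 0.51 for rno-miR-98 on the log2 scale. rno-let-7f, the most abundant of the let-7 rows tested in this list, was at 21897 ± 4888 CPM in the CTL group and 27355 ± 6147 in the AA group (SD, n = 4 each). Its log2 fold change was 0.32 (SE 0.21, edgeR adjusted p = 0.33). rno-miR-214, a miRNA of fibroblasts and injured tissue that also stands in the injury list, was at 0.50 (SE 0.24, edgeR adjusted p = 0.20). Under total counts the median of the list was 0.56 beside 0.27 over all tested miRNAs, and 0 of its members were called by edgeR, beside 68 of all 367 tested miRNAs.

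**Figure D3:**
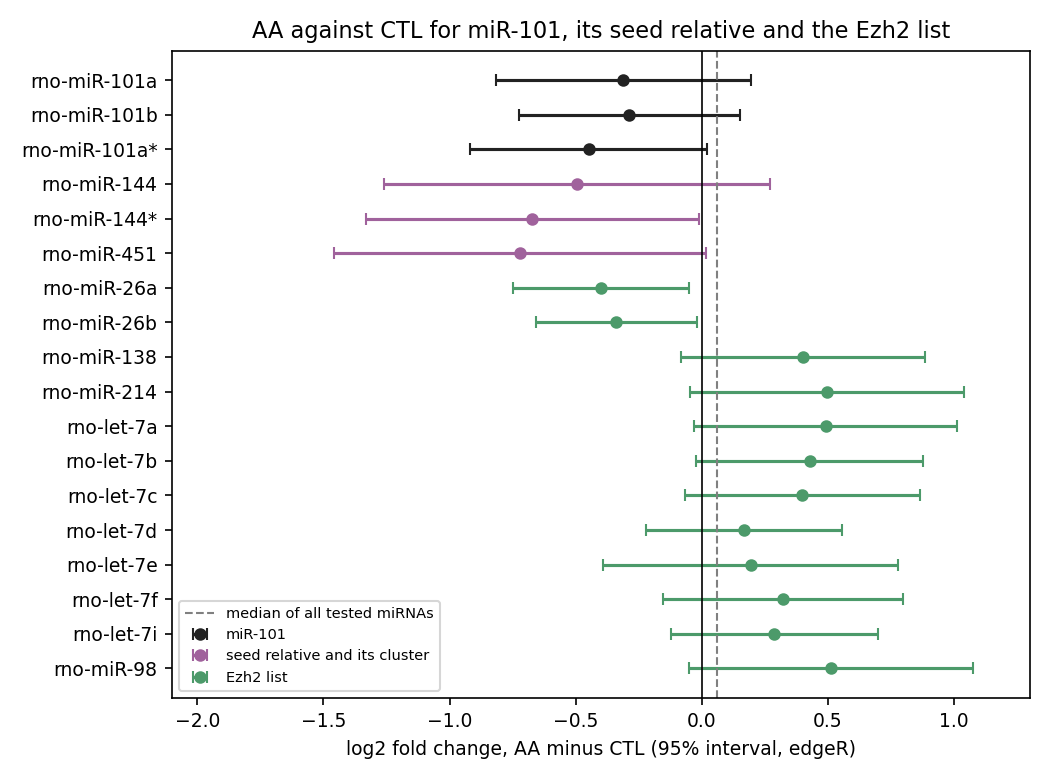
The log2 fold change of AA over CTL (horizontal axis) is plotted with its 95% interval from edgeR for the 3 tested miR-101 rows, miR-144 with the other miRNAs of its cluster, and the 12 tested miRNAs of the Ezh2 list, with the median of all tested miRNAs (0.06) as a dashed line. The miR-101 rows lie between -0.45 and -0.29 with intervals that include 0, and the let-7 rows and miR-98 lie above 0 with intervals that also include 0. The intervals of rno-miR-144*, rno-miR-26a and rno-miR-26b lie below 0.

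miR-144, which shares bases 2 to 7 with miR-101, is a miRNA of red blood cells that is made from a cluster with miR-451. It was far below miR-101 in reads and was at 13.1, 22.2, 20.7 and 14.1 CPM in the CTL libraries and 13.4, 18.0, 13.1 and 5.39 in the AA libraries. The groups overlapped, and the fourth AA library was the lowest here too, with a log2 fold change of -0.49 (SE 0.34, edgeR adjusted p = 0.34). The red blood cell list of miR-144 and miR-451 (2 of 2 found, 0 called by edgeR) summed to 499 to 798 CPM in the CTL group and 158 to 564 in the AA group, with the low end in the fourth AA library.

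The marker lists of other cell types were read beside the low miR-101 values of the libraries numbered 4. In the fourth AA library the injury list was at its highest, 178897 CPM, and the leukocyte list likewise, at 4121 CPM. In the fourth CTL library they were the other way, with the injury list at its lowest, 28622 CPM, and the leukocyte list at its lowest, 914 CPM. The sums rest mainly on miR-21 and miR-142-3p. Of the other members, miR-199a-5p (207 CPM), miR-214 (27.9), miR-150 (67.4) and miR-223 (43.7) were instead the highest of the CTL group there. miR-199a-3p (292) and miR-142-5p (41.8) were its lowest. In the fourth AA library miR-142-5p was the lowest of the 8 libraries, at 29.3 CPM, while the other leukocyte members were at their highest. The kidney epithelial list stood at 136946 CPM in the fourth AA library, and at its highest, 210581 CPM, in the fourth CTL library. That peak came with miR-192, at 74958 CPM against 21508 to 32806 in the other CTL libraries. Of the other members, miR-204 (39.2 CPM) was the highest of the CTL group there, and miR-200b (2849) and miR-200c (452) were the lowest. miR-30a and miR-194 lay within the range of the other CTL libraries. The members also differed in the fourth AA library. There miR-194 (822 CPM) and miR-200b (1956) were the lowest of the 8 libraries, and miR-200c (700) was the lowest of the AA group. miR-192 (28268) was the highest of the AA group, and miR-30a and miR-204 lay within the range of the other AA libraries. The smooth muscle list (2 of 2 found, 0 called) ranged from 177042 to 237320 CPM in CTL and from 142528 to 183820 in AA. This sum rests mainly on miR-143. miR-145, the other member, ranged the other way and overlapped, from 427 to 640 CPM in CTL and from 580 to 742 in AA. The endothelial miR-126 ranged from 5784 to 9321 CPM in CTL and from 4450 to 8301 in AA. Skeletal and heart muscle miRNAs summed to at most 55.6 CPM in any library. Of the 2 brain miRNAs, miR-124 had 0 reads in 1 CTL library and at most 32 elsewhere. The other, miR-9, had 3209 to 5962 reads in the CTL libraries and 3694 to 8257 in the AA libraries. The part of these lists in the miR-101 values was not tested.

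The miRNAs whose pattern over the 8 libraries was most like that of each abundant arm were found by the root mean square difference of log2 CPM, after each miRNA was centred on its own mean. For rno-miR-101a these were rno-miR-140 (0.09), rno-miR-664 (0.10), rno-miR-33 (0.11), rno-miR-200b (0.11) and rno-miR-32 (0.13). rno-miR-101b came in place 9 of 366, at 0.16, and rno-miR-101a* in place 35, at 0.26. The opposite arm of the same hairpin was thus farther from rno-miR-101a than the arm of the other hairpin. Its counting error, at 84 to 137 reads per library, was 8.54% to 10.9%, against at most 0.274% for rno-miR-101b. The part of this error in the distance was not tested.

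For rno-miR-101b the nearest were rno-miR-32 (0.14), rno-miR-582 (0.15), rno-miR-101a (0.16), rno-miR-382 (0.16) and rno-miR-28 (0.16). The fourth AA library weighed most in these patterns. There rno-miR-101a stood 0.86 and rno-miR-101b 0.67 below its mean over the 8 libraries on the log2 scale, and rno-miR-140 was at -0.98. None of the 8 other miRNAs named here as nearest was called by edgeR, with adjusted p from 0.24 for rno-miR-382 to 0.70 for rno-miR-32. Over all tested miRNAs 16.3% were called. The nearest miRNAs were picked for their likeness to arms that were themselves not called, so that their lack of calls is no separate result. Likeness over 8 libraries that share 1 scaling is a description of these libraries.

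**Figure D4:**
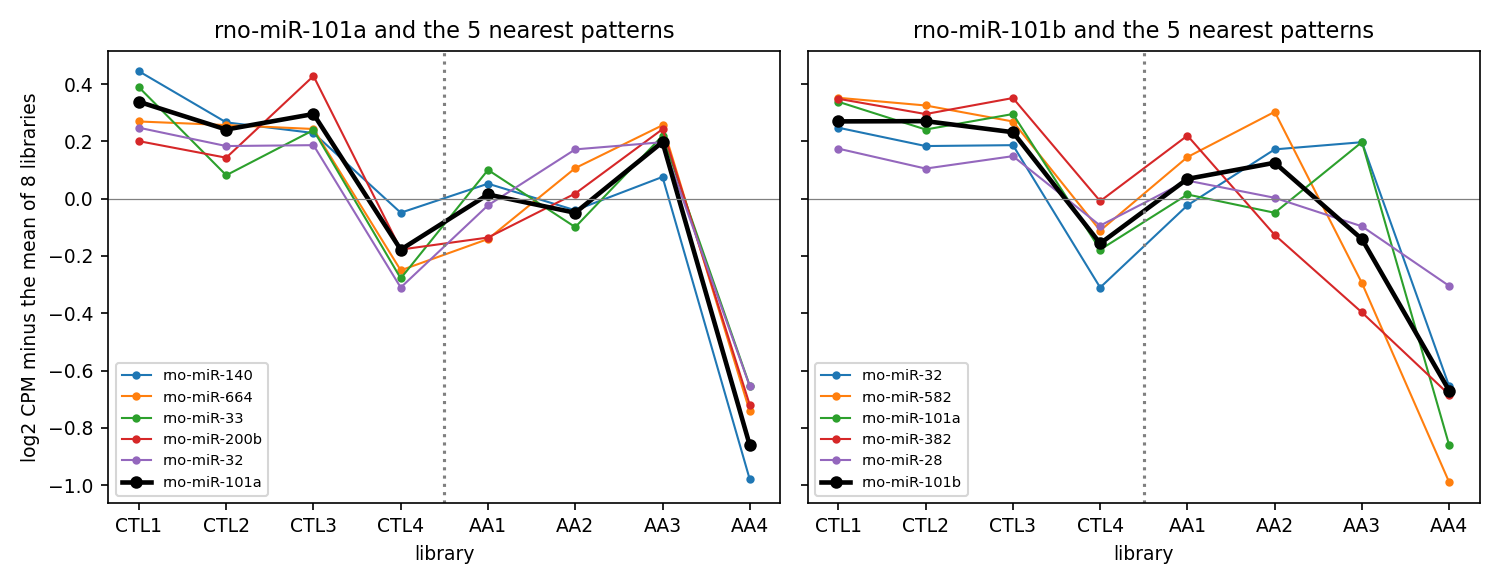
The log2 CPM of each miRNA less its mean over the 8 libraries (vertical axis) is plotted by library (horizontal axis, CTL left and AA right of the dotted line), in black for rno-miR-101a or rno-miR-101b and in color for the 5 nearest miRNAs, with lines that only join the points of 1 miRNA. All curves have their lowest point in the fourth AA library, at -0.86 for rno-miR-101a and -0.67 for rno-miR-101b.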

How the data were processed

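The 8 small RNA libraries of rat kidney were read on the Illumina Genome Analyzer II. The deposited values are the raw counts by the authors of reads per known rat miRNA, mapped with Bowtie through miRanalyzer to miRBase version 17 and not normalized. The mismatch and multiple-mapping settings for known miRNAs are not given in the sources used here, and the submitters' processing notes also name DESeq without a role. Columns were matched to samples by title. miRNAs that reached 10 reads in 4 or more libraries were compared with edgeR 4.0.16 (TMM, quasi-likelihood test, Benjamini-Hochberg adjustment, threshold 0.05) in R 4.3.3. The standard error is the log2 fold change divided by the square root of F, and the fit was tested on simulated data. Ratios were compared with the exact permutation test (smallest two-sided p 0.0286 for 4 against 4). Hairpins were folded with RNAfold 2.7.2. Nearest miRNAs used log2 CPM with a prior count of 2. Each library was 1 sample at 13412373 to 15616670 reads.

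The miRNAs named are the miR-101 rows, the Ezh2 list, the seed relative with its cluster, and the 5 nearest miRNAs of each abundant arm. These rows, the lists and the tests were chosen with earlier results of these data known. Alternatives were DESeq2 1.42.0 size factors and its Wald test, total counts, upper-quartile factors, other filters, a block, removal of the 3 most abundant miRNAs, libraries 1 to 3, and each library left out.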

Additional observations from a re-analysis of the deposited data

Results flagged for a closer look

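In 4 of the 16 groups of 4 libraries examined, 1 library stood far from the other 3, where chance marks about 1 in 20 groups, and the groups examined are not independent. rno-miR-101b was at 11246 CPM in the fourth CTL library, against 14721 to 15121 CPM in the other CTL libraries. The summed CPM of rno-miR-101a and rno-miR-101b was 26727 in the fourth CTL library, against 35824 to 37252 in the others, and 17517 in the fourth AA library, against 30599 to 31450. The log2 ratio of rno-miR-101b over rno-miR-101b* was 18.86 in the third CTL library, against 15.27 to 15.84, because that library had 0 reads of the opposite arm and the ratio there rests on the 0.5 added to each count. The source of the low values in the libraries numbered 4 was not tested.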

How the results depend on the processing

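For rno-miR-101a, rno-miR-101b and rno-miR-101a*, all 17 alternative fits kept a log2 fold change below 0 and an adjusted p of at least 0.10, with ranges from -0.46 to -0.11, from -0.45 to -0.08 and from -0.62 to -0.23. The summed arms stayed between -0.46 and -0.10 over 13 fits. Of the single libraries, the fourth AA library mattered most for the abundant arms relative to all miRNAs: without it rno-miR-101a was at -0.23, or -0.15 from the median of all tested miRNAs. The number of miRNAs called over the whole table was 60. It lay between 35 (without the second CTL library) and 51 with 1 library left out, and between 52 and 78 otherwise, and without the first CTL library it was 37. The share called higher went from 63.3% to 79.4% with total counts and to 51.9% in libraries 1 to 3. The difference in the ratio of rno-miR-101a over rno-miR-101a* ranged from -0.039 (without the fourth CTL library) to 0.22 with 1 library left out, and that of rno-miR-101a over rno-miR-101b from -0.16 to 0.016, with 0.011 without the second AA library and 0.016 without the fourth. Neither difference was called, so that these changes of sign are around 0. For rno-miR-101b over rno-miR-101b* the range was -2.27 to -1.07. The median of the Ezh2 list moved from 0.36 to 0.56 with total counts, a shift that total counts also gave the median of all miRNAs.

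Libraries carry the numbers 1 to 4 in both groups, but nothing says that a number marks a shared litter or batch, and the correlations of same-numbered deviations were 0.05, 0.20, 0.14 and 0.35. With the number as a block, 78 miRNAs were called, and rno-miR-101a was at -0.35 (adjusted p = 0.14 from edgeR), rno-miR-101b at -0.31 (0.14), rno-miR-101a* at -0.46 (0.15) and the sum at -0.31 (0.20). Each block test of a ratio allows no p below the threshold with 4 pairs. The depth limits rno-miR-101b* most, with at most 16 reads in a library.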
